A study of Mus musculus with 6 samples.

Results

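The platelet-derived growth factor (PDGF) genes were examined here in mouse adipose-derived stem cells (ADSC), stromal cells grown from fat tissue. The members were chosen by gene name as the 4 ligand genes (Pdgfa, Pdgfb, Pdgfc and Pdgfd) and both receptor genes (Pdgfra and Pdgfrb), 6 of the 56748 genes in the deposited table. All 6 passed the filter on low counts, which left 14502 genes. Bulk RNA sequencing covered 3 libraries labelled as overexpressing the integrins VLA-4 (Itga4 with Itgb1) and LFA-1 (Itgal with Itgb2) and 3 libraries labelled mock, and the series asked what carrying these leukocyte adhesion receptors changes in the stem cells. Per the labels, the first group was transduced with both integrins at once and the second with an empty vector, while the sample label of the second gives a wild-type genotype and the design text calls those cells unmodified. Both groups were grown as adherent cultures in serum-containing, normal-glucose medium. The type of vector, its promoter, clonal status of the cells, and the mouse strain and age are not given in sources used here. No label ties a library to its own culture or animal, so the tests see the spread among libraries, and that spread could be purely technical.

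PDGF ligands are secreted dimers that bring a pair of receptor tyrosine kinases together. The alpha receptor binds the A, B and C chains, and the beta receptor binds the B and D chains. The A and B chains are trimmed inside the cell by furin-type convertases. The C and D chains leave the cell in a latent form, with an N-terminal CUB domain that a protease has to remove outside the cell. The alpha receptor is a marker of fibroblasts and of the progenitors of fat cells, the beta receptor marks pericytes and other mural cells, and stromal cells of fat grown in culture carry both.

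Library totals were 15723888 to 18185832 counts in the libraries labelled overexpressing and 16904703 to 18381083 in those labelled mock, and the first principal component, with 70.9% of the variance, separated the groups. Of the integrin genes that check the label, Itga4 and Itgb1 went against it, and Itgal and Itgb2 had too few counts to be tested. Itga4 had 2.51 ± 0.279 CPM (counts scaled to library size with TMM factors) in the libraries labelled overexpressing and 6.50 ± 1.48 CPM in those labelled mock (SD, n = 3 each), and Itgb1 had 2225 ± 122 CPM in the first and 2780 ± 44.5 CPM in the mock libraries. Itgal had 7 counts over each group, and Itgb2 had 15 counts over the libraries labelled overexpressing and 38 over those labelled mock. Whether the labels of the groups were exchanged, or whether transcripts of the vectors were counted at all, was not tested. Directions are given between libraries as labelled, and exchanged labels would turn every one of them. Of the 9 mesenchymal stromal markers, all had counts, 7 fell (as did 23% of all tested genes) and none rose (22.3% of all tested genes did), and they summed to 9263 to 10671 CPM in the libraries labelled overexpressing and 18319 to 19395 CPM in those labelled mock. Their part in the results below was not tested. Thy1 and Ly6a reached 403 and 155 CPM in the libraries labelled overexpressing and 746 and 471 CPM in those labelled mock. Nt5e (CD73), often used to define such cells, had only 0.526 CPM in the libraries labelled overexpressing and 0.386 CPM in those labelled mock.

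The C and D genes encode the CUB-domain pair of ligands, of which Pdgfd fell and Pdgfc was not called, so the sequence before their start sites is shown. The sequences come from RefSeq on build GRCm38.p6, which is not the build of the deposited table, and were limited to bases outside the annotated genes. Pdgfc (plus strand, chr3:81036166-81036415) and Pdgfd (plus strand, chr9:6168236-6168362) read as follows, with the letters TATAAA in capitals. In Pdgfd they begin at -160, counted from the RefSeq start site, and the 123 bases just before that site are left out because they lie in an annotated exon or gene.
Pdgfc: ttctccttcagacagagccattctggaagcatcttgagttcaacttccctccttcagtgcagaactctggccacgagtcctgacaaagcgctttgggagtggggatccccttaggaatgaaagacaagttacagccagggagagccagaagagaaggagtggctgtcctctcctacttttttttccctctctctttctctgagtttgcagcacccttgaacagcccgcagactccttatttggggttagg
Pdgfd: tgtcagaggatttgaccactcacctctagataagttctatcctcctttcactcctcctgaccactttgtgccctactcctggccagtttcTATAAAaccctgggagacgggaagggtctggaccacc
The search covered windows of 300 bases around the start sites, on both strands, for 4 motifs. These were the TATA box as TATAAA, the GC box as GGGCGG, the AP-1 site as TGANTCA, and the STAT site as TTCNNNGAA, and TGANTCA and TTCNNNGAA were found in 7.81% and 8.3% of all windows. The Pdgfd window held TATAAA, as did 13.6% of the 32851 windows in the table, and none of the other motifs. The Pdgfc window held none of the 4. Of the other members, only the windows of 2, Pdgfra and Pdgfa, were searched. Windows of the remaining members were not searched, which does not mean that none exist. The Pdgfra window held none of the 4 motifs. Both Pdgfa windows held GGGCGG, as did 35.7% of all windows. These matches are letters in a window and were not tested against expression.

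Among the 6 PDGF genes, Pdgfrb, Pdgfd and Pdgfb were lower in the libraries labelled overexpressing, Pdgfa was slightly higher, and Pdgfra and Pdgfc passed no test. The fall was 1.49-fold for Pdgfrb, 1.54-fold for Pdgfd and 4.43-fold for Pdgfb. The 3 genes that fell encode the beta receptor and both chains that bind it. By edgeR's quasi-likelihood test with Benjamini-Hochberg adjustment over all genes, 3 of 6 members were lower, where 23% of all tested genes were, and 1 of 6 was higher, where 22.3% were. With 45.3% of all genes called in either direction, 4 calls among 6 genes is not far from the background. The median log2 fold change of the 6 genes was -0.28, against 0.005 over all tested genes. The groups did not overlap for 4 of the 6, where 53.4% of all genes did not, with 3 lower (26.5% of all genes) and 1 higher (26.9% of all genes).

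**Figure D1:**
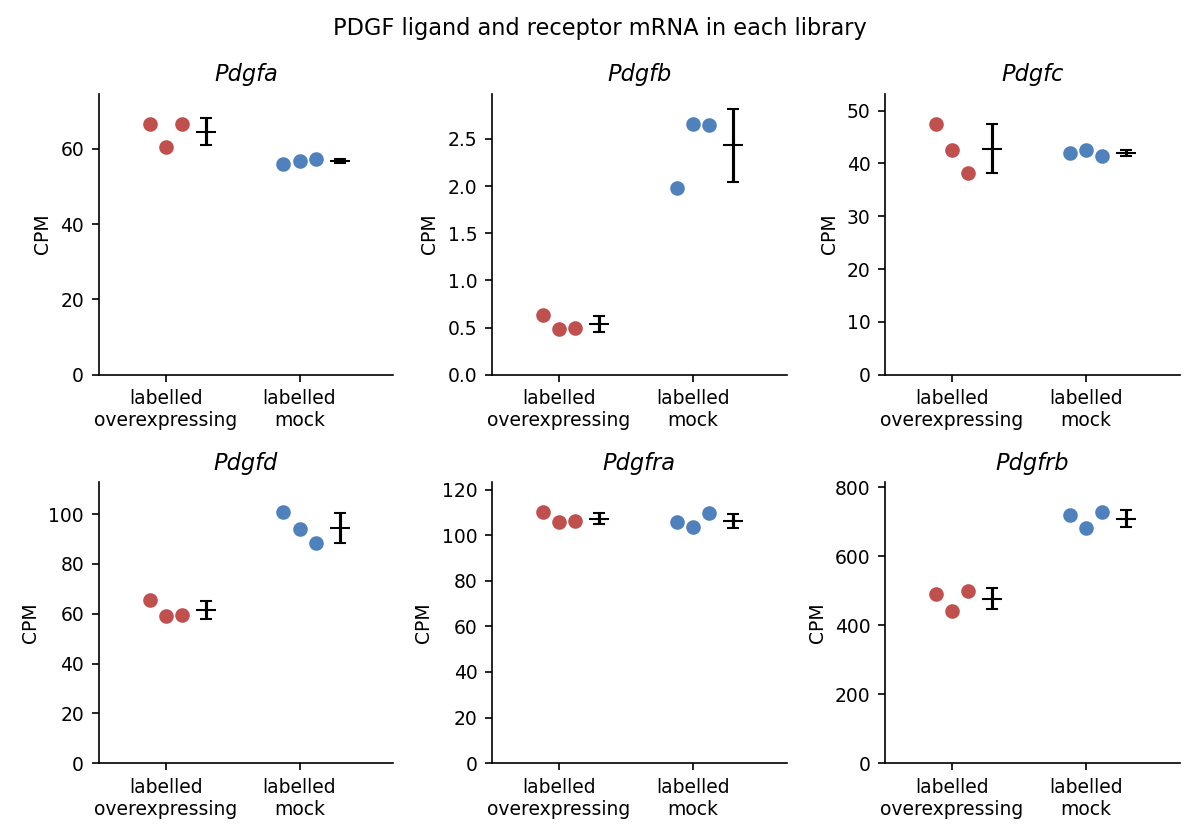
Each panel plots the CPM (library-size scaled counts) of a PDGF gene on an axis from 0, with a point for each library, the libraries labelled overexpressing on the left and those labelled mock on the right, and the mean with its SD beside the points. Pdgfrb, Pdgfd and Pdgfb sit lower in all 3 libraries labelled overexpressing, Pdgfa sits slightly higher, and the points of Pdgfc and Pdgfra overlap.

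Pdgfrb (ENSMUSG00000024620, protein-coding, mm39 chromosome 18, 61178222 to 61218133, plus strand) encodes the beta receptor and was the most abundant member. It had 490, 442 and 498 CPM in the libraries labelled overexpressing and 720, 681 and 728 CPM in those labelled mock. The highest value of the first group lay well below the lowest of the second. The log2 fold change was -0.57 (SE 0.058, 95% interval -0.70 to -0.45, edgeR adjusted p = 3.70e-08, n = 3 each). Its mean level was above that of 98.7% of all tested genes. In bulk RNA, fewer cells of a type and less RNA per cell cannot be told apart.

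Markers of cell types that carry the beta receptor moved in different ways beside it. Of 9 pericyte and mural markers, 8 had counts and Kcnj8 was at 0, and of 6 tested, 4 fell and 2 rose, where 23% and 22.3% of all tested genes did. Their summed level was 4271 to 4563 CPM in the libraries labelled overexpressing and 6750 to 7416 CPM in those labelled mock, most of it from Acta2. The pericyte marker Rgs5 fell to 3.47 ± 0.154 CPM in the libraries labelled overexpressing, against 6.18 ± 0.348 CPM in mock, and the proteoglycan Cspg4 went the other way, as described below. Of 8 Schwann cell markers, all had counts in some library, 6 were tested and all 6 fell (23% of all tested genes did), with sums of 2.61 to 3.29 CPM in the libraries labelled overexpressing and 26.4 to 34.8 CPM in those labelled mock. Cdh19 and Foxd3 of that list were at 0 in the libraries labelled overexpressing. The part of either cell type in the levels of the members was not tested.

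Pdgfra (ENSMUSG00000029231, protein-coding, chromosome 5, 75312953 to 75358876, plus strand) encodes the alpha receptor. It had 110, 106 and 106 CPM in the libraries labelled overexpressing and 106, 103 and 109.6 CPM in those labelled mock. The groups overlapped, and the means of 107 ± 2.45 CPM (labelled overexpressing) and 106 ± 3.16 CPM (labelled mock) differed by less than the SD within either group. The log2 fold change was 0.013, with a 95% interval of -0.11 to 0.13 (edgeR adjusted p = 0.870), so a change between 0.928-fold and 1.10-fold lies within the interval.

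The balance of the receptors stood apart between the groups, without reaching a threshold that 3 libraries a group cannot reach. Within a library, the ratio of Pdgfra to Pdgfrb in FPKM (fragments scaled to gene length and library size, as deposited) does not depend on scaling between libraries. It was 0.123, 0.131 and 0.116 in the libraries labelled overexpressing and 0.0804, 0.0829 and 0.0823 in those labelled mock, a ratio 1.50-fold higher in the first group. All 3 ratios of the first group were above all 3 of the second (exact permutation test, two-sided p = 0.1, adjusted over 5 ratios 0.167, where 0.1 is the smallest p that 3 against 3 allows). The alpha receptor made up 10.97 ± 0.576% of the summed receptor FPKM in the libraries labelled overexpressing and 7.57 ± 0.11% in those labelled mock.

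Among the ligands, Pdgfd (ENSMUSG00000032006, protein-coding, chromosome 9, 6168584 to 6378850, plus strand), the latent ligand of the beta receptor, fell with Pdgfrb. It had 65.5, 59.2 and 59.3 CPM in the libraries labelled overexpressing and 101, 94.1 and 88.4 CPM in those labelled mock. The groups stood apart by more than the spread in either. The log2 fold change was -0.62 (SE 0.068, 95% interval -0.76 to -0.48, edgeR adjusted p = 1.15e-07). In all, Pdgfd had 3279 counts over the libraries labelled overexpressing and 4875 over those labelled mock. The ratio of Pdgfd to Pdgfrb was 0.224 ± 0.0148 in the libraries labelled overexpressing and 0.231 ± 0.0178 in those labelled mock, and the values overlapped (exact permutation test, two-sided p = 0.5). Its difference turned positive without overexpressing replicate 3 (0.0096 on the log2 scale, in place of -0.047).

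Pdgfb (ENSMUSG00000000489, protein-coding, chromosome 15, 79880075 to 79899178, minus strand) encodes the chain that binds both receptors and is best known as the ligand that endothelial cells use to recruit pericytes. It was the rarest member, with 12, 8 and 9 counts in the libraries labelled overexpressing and 35, 47 and 43 counts in those labelled mock. These are 0.637, 0.485 and 0.4995 CPM in the first group and 1.98, 2.66 and 2.65 CPM in the second. Every library of the first group was low, and the groups did not overlap. The log2 fold change was -2.15 (SE 0.36, edgeR adjusted p = 3.54e-05). The ratio of the summed counts was 0.224, with an exact 95% counting interval of 0.144 to 0.338, which covers counting error only. Its ratio to Pdgfrb was 0.00149 ± 0.0002 in the libraries labelled overexpressing and 0.00452 ± 0.00079 in those labelled mock, 3.01-fold lower and without overlap (exact permutation test, two-sided p = 0.1, the smallest possible).

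Each list of markers of cells known to make the B chain summed to at most 24.7 CPM in any library. Of 9 endothelial markers, all had some counts, and their summed level was 21.0 to 22.5 CPM in the libraries labelled overexpressing and 15.5 to 20.6 CPM in those labelled mock. Tek made up most of that sum in the libraries labelled overexpressing, so the sum hides markers that were lower. Of 4 tested, Tek rose to 15.5 ± 0.92 CPM, against 6.01 ± 0.882 CPM in mock, while Pecam1 and Egfl7 fell. Pecam1, a defining endothelial adhesion molecule, had 10 counts over the libraries labelled overexpressing and 67 over those labelled mock. Cdh5 had 199 and 260 counts over these groups and passed no test. Among markers not tested, Emcn had 12 and 74 counts over the same groups and Tie1 3 and 26. Esam had 22 and 27, Vwf 21 and 22, and Cldn5 went the other way with 3 and 1. Of 8 macrophage markers, 1 of 4 tested fell (Csf1r), the sum was 16.5 to 20.2 CPM in the libraries labelled overexpressing and 21.5 to 24.7 CPM in those labelled mock, and the leukocyte marker Ptprc had 5 and 8 counts over these groups. Csf1r alone had a mean of 8.41 CPM in the libraries labelled overexpressing and 13.1 CPM in those labelled mock. Cd68 and Cd14 had slightly higher means and Lyz2 a lower mean with the overexpressing label, and none of these passed the test. Adgre1 and Fcgr1 of that list were at 0 in the libraries labelled overexpressing and had 5 and 1 counts over those labelled mock. Itgam went the other way, with 8 counts over the libraries labelled overexpressing and 0 over those labelled mock. Of 5 platelet and megakaryocyte markers 1 rose and 1 fell of 2 tested, with a sum of 3.77 to 5.15 CPM in the libraries labelled overexpressing and 4.56 to 5.78 CPM in those labelled mock. Over all tested genes, 22.3% rose and 23% fell. The part of these cell types in the level of Pdgfb was not tested.

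Pdgfa (ENSMUSG00000025856, protein-coding, chromosome 5, 138961769 to 138983125, minus strand), the main ligand of the alpha receptor, had 66.7, 60.4 and 66.5 CPM in the libraries labelled overexpressing and 56.1, 56.8 and 57.2 CPM in those labelled mock. All 3 values of the first group were above all 3 of the second, by a small margin. The log2 fold change was 0.19 (SE 0.068, 95% interval 0.046 to 0.33, edgeR adjusted p = 0.0284), a 1.14-fold rise. This call was weak. Leaving out overexpressing replicate 2 kept the call (edgeR adjusted p = 0.0108), and leaving out any of the other 5 ended it (0.108 without overexpressing replicate 1, 0.0759 without overexpressing replicate 3, 0.0927, 0.0641 and 0.0566 without mock replicates 1, 2 and 3), the call was also lost with no filter, with DESeq2 and with limma on FPKM (adjusted p = 0.0811, 0.0688 and 0.0536), and the adjusted p in the authors' deposited table was 0.0681. A long noncoding gene on the opposite strand, 6330403L08Rik, overlaps Pdgfa and had 536 counts over the libraries labelled overexpressing and 473 over those labelled mock. The strand setting is not given in sources used here, so reads of the overlap cannot be assigned with certainty.

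Pdgfc (ENSMUSG00000028019, protein-coding, chromosome 3, 80943723 to 81121347, plus strand), the latent ligand of the alpha receptor, had 47.5, 42.6 and 38.2 CPM in the libraries labelled overexpressing and 41.9, 42.6 and 41.4 CPM in those labelled mock. The mock values lay inside the wider range of the first group. The log2 fold change was 0.028, with a 95% interval of -0.14 to 0.20 (edgeR adjusted p = 0.808), which leaves room for changes between 0.905-fold and 1.15-fold.

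Set against the alpha receptor, these ligands differed little. The ratio of Pdgfa to Pdgfra was 1.93 ± 0.0909 in the libraries labelled overexpressing and 1.71 ± 0.0468 in those labelled mock, 1.13-fold higher and without overlap (exact permutation test, two-sided p = 0.1, the smallest possible). The ratio of Pdgfc to Pdgfra was 0.785 ± 0.0703 in the libraries labelled overexpressing and 0.778 ± 0.0336 in those labelled mock, and overlapped (exact permutation test, two-sided p = 0.9). The sign of that small difference turned without overexpressing replicate 1 or 2 or mock replicate 3 (lowest -0.051 on the log2 scale). After adjustment over the 5 ratios, the smallest p was 0.167, so none passed the threshold and none could at this number of libraries.

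**Figure D2:**
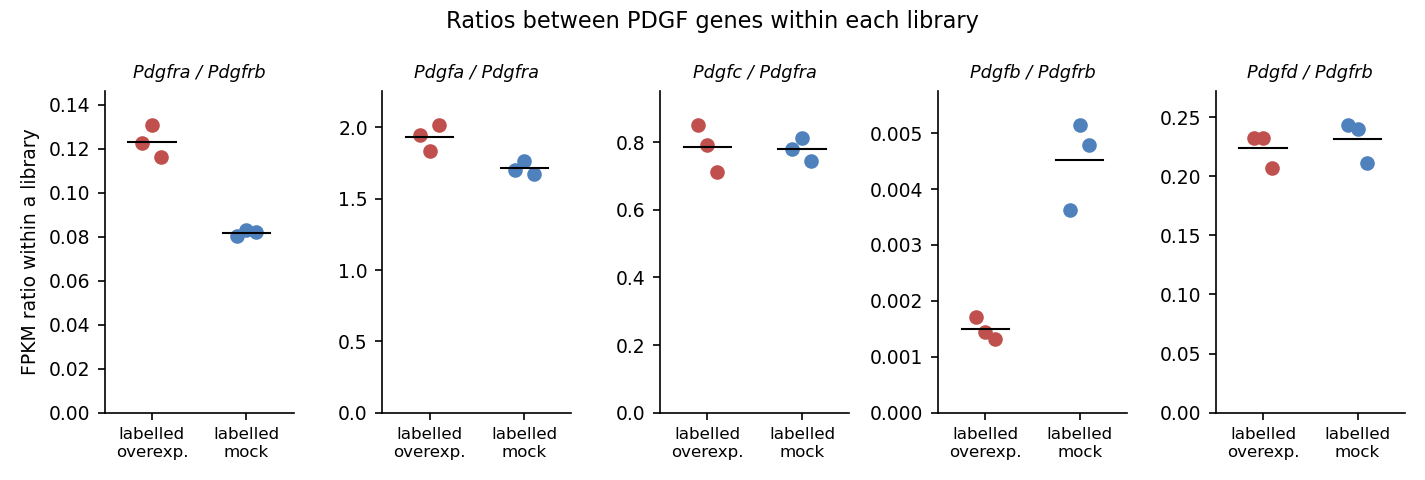
Each panel plots the ratio of FPKM between a pair of PDGF genes within each library, on an axis from 0, with libraries labelled overexpressing on the left, those labelled mock on the right and a line at each mean. Pdgfra over Pdgfrb is higher and Pdgfb over Pdgfrb lower in all 3 libraries labelled overexpressing, while Pdgfd over Pdgfrb and Pdgfc over Pdgfra overlap between the groups.

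Levels can be compared between genes only per gene length, so the deposited FPKM values were used to order them. In the libraries labelled overexpressing, Pdgfrb led with 86.3 ± 5.91 FPKM, followed by Pdgfa with 20.5 ± 1.23, Pdgfd with 19.3 ± 1.20, Pdgfra with 10.6 ± 0.276, Pdgfc with 8.33 ± 0.914 and Pdgfb with 0.129 ± 0.0204 FPKM. In the libraries labelled mock, Pdgfrb had 129 ± 4.01 FPKM, Pdgfd 29.9 ± 2.00, Pdgfa 18.1 ± 0.185, Pdgfra 10.6 ± 0.269, Pdgfc 8.22 ± 0.15 and Pdgfb 0.583 ± 0.0935 FPKM. The order was the same but for Pdgfa and Pdgfd. In the libraries labelled overexpressing their ranges of 19.1 to 21.2 and 18.5 to 20.7 FPKM overlapped, so these neighbours did not differ beyond their spread, while in those labelled mock every value of Pdgfd was above every value of Pdgfa. No other neighbours overlapped in either group.

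The mix of ligand mRNA was as follows. Pdgfd made up 40.0 ± 0.499% of the summed ligand FPKM in the libraries labelled overexpressing and 52.6 ± 1.85% in those labelled mock. Pdgfa made up 42.5 ± 1.83% with the overexpressing label and 31.9 ± 1.3% with the mock label. Pdgfc made up 17.3 ± 1.32% with the overexpressing label and 14.5 ± 0.397% with the mock label, and Pdgfb 0.266 ± 0.0265% with the overexpressing label and 1.03 ± 0.189% with the mock label. For each of these shares the groups did not overlap (exact permutation test, two-sided p = 0.1, the smallest possible). A share of a sum moves when any of its parts moves, so the share of Pdgfc stood apart while its level passed no test.

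**Figure D3:**
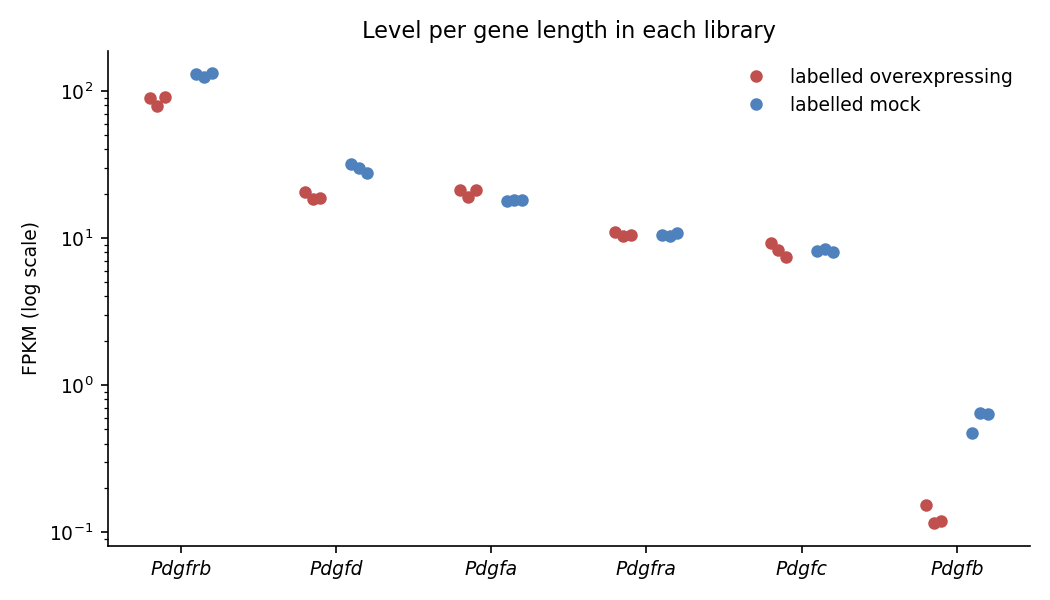
FPKM of each PDGF gene on a log axis, with a point for each library and the libraries labelled overexpressing to the left of those labelled mock. Pdgfrb is the highest and Pdgfb the lowest gene in every library, and Pdgfd and Pdgfa meet in the libraries labelled overexpressing.

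Most genes whose proteins cut, bind or present the ligands changed. Of 14 such genes 13 were tested (A2m, a plasma protein that binds PDGF, had 2 counts over each group), and 8 fell and 3 rose by edgeR's test. That is 84.6% called, beside 45.3% of all genes, with a median log2 fold change of -0.47 beside 0.005. Plat, the tissue plasminogen activator that removes the CUB domain of the C chain, had 10.4, 9.82 and 12.6 CPM in the libraries labelled overexpressing and 70.0, 76.2 and 78.6 CPM in those labelled mock. It fell 6.83-fold (log2 fold change -2.77, SE 0.094, edgeR adjusted p = 2.05e-16), beside a level of Pdgfc that passed no test. Plau, the urokinase that activates the D chain, had 59.4 ± 5.35 CPM in the libraries labelled overexpressing and 171 ± 5.52 CPM in those labelled mock and fell 2.88-fold. St14 (matriptase), another protease that cuts the D chain, went the other way: it had 6.93 ± 0.103 CPM in the libraries labelled overexpressing and 2.55 ± 0.405 CPM in those labelled mock, a 2.71-fold rise.

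Of the 4 convertases of the A and B chains, 2 fell, where 23% of all tested genes did, and 2 passed no test. Furin had 189 ± 10.5 CPM in the libraries labelled overexpressing and 215 ± 12.2 CPM in those labelled mock, a log2 fold change of -0.18 (edgeR adjusted p = 0.0148). Its call was lost when scaled by library size only (adjusted p = 0.312) and with limma on FPKM (0.0623), and also without overexpressing replicate 2 or mock replicate 3 (adjusted p = 0.0741 and 0.0804). Pcsk5 fell by 0.64 on the log2 scale. Pcsk6 and Pcsk7 passed no test, with log2 fold changes of 0.029 and 0.20. Pcsk7 passed when scaled by library size only (adjusted p = 0.00351) and with limma-voom (0.0494), and also without overexpressing replicate 3 or mock replicate 3 (adjusted p = 0.0430 and 0.0276).

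Partners of the receptors split. Lrp1, a large endocytic receptor that associates with the beta receptor, had 4591 ± 186 CPM in the libraries labelled overexpressing and 2866 ± 171 CPM in those labelled mock, a 1.60-fold rise. Cspg4 (NG2), a proteoglycan of pericytes and progenitors that binds the A chain, had 59.9, 56.5 and 61.9 CPM in the libraries labelled overexpressing and 23.4, 24.1 and 32.7 CPM in those labelled mock, a 2.23-fold rise without overlap. Nrp1, a co-receptor, had 85.6 ± 4.66 CPM in the libraries labelled overexpressing and 125 ± 4.08 CPM in those labelled mock and fell by 0.55 on the log2 scale. Sparc and Thbs1, matrix proteins that bind PDGF, fell by 0.61 and 0.67 on the log2 scale.

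**Figure D4:**
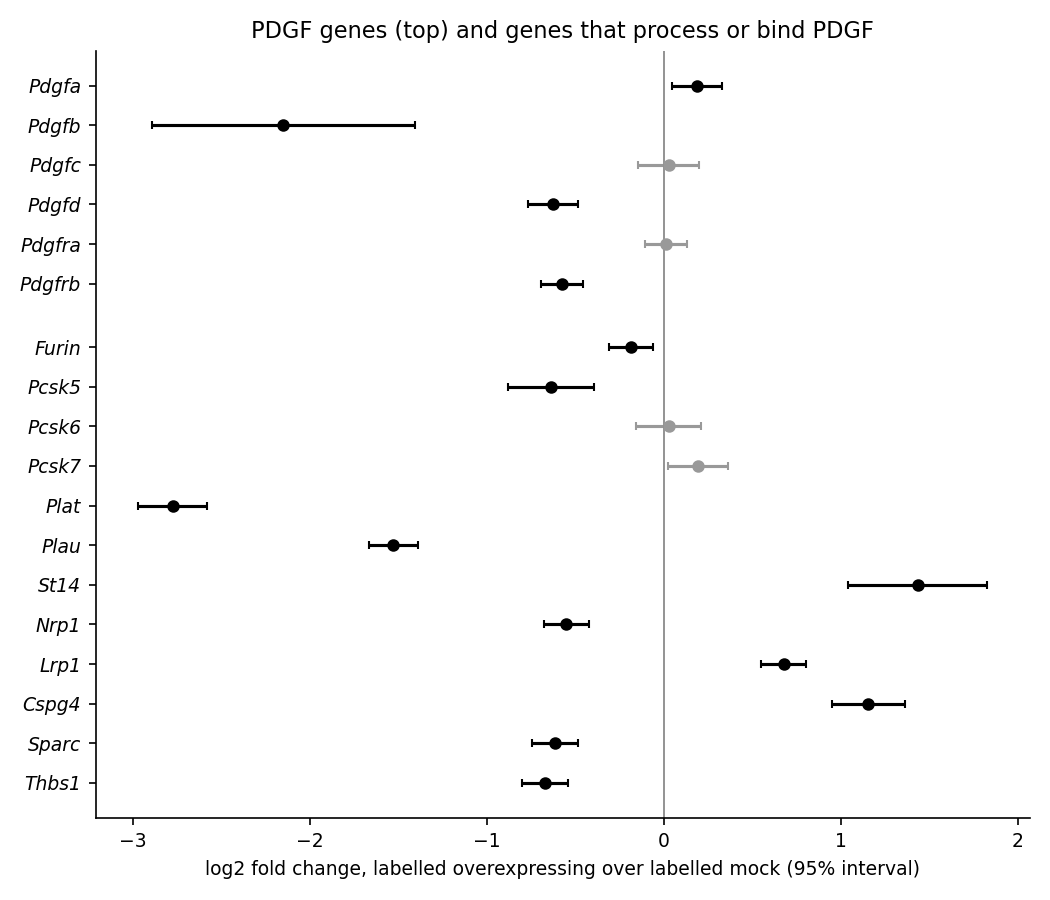
Log2 fold change of the 6 PDGF genes (upper block) and of 12 genes that process or bind PDGF (lower block), libraries labelled overexpressing over those labelled mock, with bars for the 95% interval and grey for genes that passed no test. Plat lies farthest to the left at -2.77 and St14 farthest to the right at 1.44, while Pdgfra and Pdgfc lie close to 0.

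The relay inside the cell moved by small amounts. All 35 adaptors, kinases and other transducers of PDGF receptor signalling were tested, and 12 rose and 4 fell, 45.7% called beside 45.3% of all genes, with a median log2 fold change of 0.012. The smallest p-values belonged to Abl1, a cytoplasmic tyrosine kinase, which rose by 0.56, Map2k1 (MEK1), which fell by 0.50, Crkl, an adaptor, which rose by 0.46, Stat3, which fell by 0.42, and Fyn, a Src-family kinase, which fell by 0.41 on the log2 scale. Scaled by library size only, 16 rose and 3 fell.

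Of 19 negative regulators, 4 rose and 9 fell (68.4% called, beside 45.3% of all genes, with a median log2 fold change of -0.16). Spry1, a feedback inhibitor of Ras signalling, had 29.9 ± 2.32 CPM in the libraries labelled overexpressing and 79.6 ± 7.36 CPM in those labelled mock, 2.66-fold lower. Socs3, an inhibitor of cytokine signalling, fell 2.75-fold, and Cblb, a ubiquitin ligase that removes activated receptors, fell 1.51-fold. Dusp4, a MAP kinase phosphatase, had 288 ± 20.2 CPM in the libraries labelled overexpressing and 171 ± 3.03 CPM in those labelled mock and rose 1.68-fold, and Spred2, a relative of the Sprouty proteins, rose 1.49-fold. When scaled by library size only, 6 rose and 7 fell.

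Of 20 genes known to respond early to growth factors in fibroblasts, 13 fell and 3 rose (80% called, beside 45.3% of all genes, with a median log2 fold change of -0.29 beside 0.005). The chemokines Ccl2 and Cxcl1 were first cloned in mouse fibroblasts as the PDGF-induced genes JE and KC. Ccl2 had 239 ± 23.3 CPM in the libraries labelled overexpressing and 926 ± 20.1 CPM in those labelled mock. Cxcl1 had 20.3 ± 1.99 CPM in the libraries labelled overexpressing and 99.5 ± 1.75 CPM in those labelled mock, a 4.91-fold fall, and Ccl7 fell by 1.90 on the log2 scale. Has2, a hyaluronan synthase, fell 2.84-fold, and Ptgs2, the inducible cyclooxygenase, 1.78-fold. These genes also respond to cytokines, no label gives an added PDGF stimulus, and both groups grew in serum-containing medium. The 3 that rose were Jun, Fosb and Fosl1, by 0.73, 0.66 and 0.33 on the log2 scale. Myc, Egr1, Egr3 and Odc1 passed no test, and the calls of Fos and Klf10 as lower were near the threshold (edgeR adjusted p = 0.0474 and 0.0469). Scaled by library size only, 10 of the list fell and 4 rose.

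Among relatives of the family, more fell than rose. Of 14 related ligands and receptors 12 were tested, and 6 fell and 3 rose (75% called, beside 45.3% of all genes, with a median log2 fold change of -0.44). The VEGF ligands share the PDGF fold. Vegfa had 245 ± 3.14 CPM in the libraries labelled overexpressing and 379 ± 11.5 CPM in those labelled mock and fell 1.55-fold, Vegfd fell 1.88-fold and Pgf 2.26-fold, and Flt1, a VEGF receptor, fell 3.11-fold. Kitl, the ligand of the PDGF receptor relative Kit, had 61.8 ± 5.05 CPM in the libraries labelled overexpressing and 25.6 ± 2.52 CPM in those labelled mock, a 2.40-fold rise. Kit itself, the next protein-coding gene after Pdgfra on chromosome 5, had 14 counts over the libraries labelled overexpressing and 19 over those labelled mock and was not tested. Csf1r, another relative, lies 15536 bases after Pdgfrb on the same strand. It was singled out after its values were seen, had 449 counts over the libraries labelled overexpressing and 671 over those labelled mock, and fell by 0.63 on the log2 scale, beside a fall of 0.57 for Pdgfrb.

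**Figure D5:**
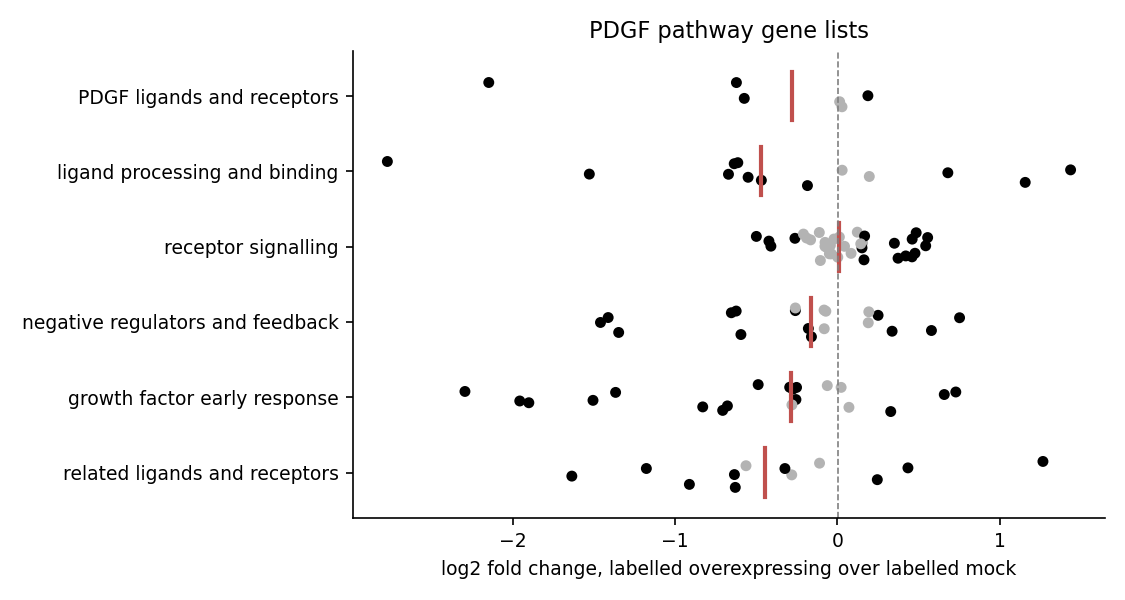
Log2 fold change, libraries labelled overexpressing over those labelled mock, of every tested gene in the PDGF set and in 5 pathway lists, with black points for genes that passed the edgeR test, grey for those that did not, a bar at each list's median and a dashed line at the median of all genes. The receptor signalling list centres on 0.012, and the list of genes that process and bind the ligands has the median farthest from 0, at -0.47.

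Over the 6 libraries, the members that fell had like patterns. Pearson's r of log2 CPM was 0.96 between Pdgfd and Pdgfrb, 0.97 between Pdgfb and Pdgfrb and 0.95 between Pdgfb and Pdgfd, while Pdgfa ran against them with -0.79 to -0.84. Pdgfra had r of 0.42 with Pdgfc and -0.08 with Pdgfrb. These values describe 6 libraries in 2 groups, and all points share the difference between the groups. Among 12426 protein-coding genes, those most like Pdgfrb were C1qtnf1, Sdc3 and Lrrc32 (r of 0.998 to 0.999), and 1104 genes had r over 0.95 with it. Those most like Pdgfd were Stat3, Mill2 and Cemip (0.998 to 0.999), and those most like Pdgfb were Ext2, Srp68 and Rnf114 (0.998 to 0.9995). For Pdgfa they were Rgp1, Sphk2 and Als2cl (0.994 to 0.996). For Pdgfra they were Mtg1, Nomo1 and Ankrd42 (0.973 to 0.989), and for Pdgfc Arsb, Eif2ak4 and Naa35 (0.971 to 0.997), and only 8 and 7 genes had r over 0.95 with them.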

How the data were processed

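Build mm39 was used, per the submitters' processing notes, which also list 4 tools without roles: featureCounts 1.5.0-p3, StringTie 1.3.3b, HISAT2 2.0.5 and fastp. The annotation release and strand setting are not given in sources used here. The table that the authors deposited holds raw counts, FPKM, a group-mean signal, log2 fold changes and p-values. The deposited FPKM correspond to library sizes 0.964 to 1.06 times the total counts. Counts were tested in edgeR (version 4.0.16, R version 4.3.3) with TMM factors, filterByExpr (minimum count 10) and the group as the only term. P-values were adjusted by Benjamini-Hochberg over 14502 genes, with a threshold of 0.05. The SE is the log2 fold change over the square root of F. Libraries of the same group differed by more than counting noise (chi-square over degrees of freedom, 3.55 to 7.47). A gene with no counts is below 0.159 to 0.185 CPM (3 counts). The procedure was tested on simulated counts. The members and lists were chosen with earlier results of these data known. Named genes were the members, the transduced subunits, every gene that processes or binds PDGF (1 of them, counted in its list, is not reported here), up to 5 called genes per other list by smallest p, and the 3 most correlated genes per member.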

Additional observations from a re-analysis of the deposited data

How the results depend on the processing

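The count of 3 lower members held under every alternative run: RLE factors, library size only, no filter, DESeq2 (version 1.42.0), limma-voom, limma (version 3.58.1) on log2(FPKM + 0.1), the replicate block and each library left out. The count of higher members, 1, was 0 with no filter, with DESeq2 and with limma on FPKM, where the adjusted p of Pdgfa was 0.0811, 0.0688 and 0.0536, and 0 to 1 over the libraries left out; the cause was not tested. With library size alone as the scale, the all-gene median was 0.116 (log2) in place of 0.005, and 65.8% of calls were higher in place of 49.2%. This scale gave Pdgfrb, Pdgfd and Pdgfb -0.46, -0.51 and -2.04, and Pdgfra 0.12 (adjusted p = 0.0794). With a library left out, the log2 difference in ratio ran from -0.051 to 0.078 for Pdgfc over Pdgfra, from -0.11 to 0.0096 for Pdgfd over Pdgfrb, from 0.55 to 0.63 for Pdgfra over Pdgfrb, from 0.14 to 0.21 for Pdgfa over Pdgfra and from -1.74 to -1.49 for Pdgfb over Pdgfrb. Same-numbered libraries did not deviate together (r of 0.0034 to 0.016), and no label pairs them. Deviations within groups of 3 libraries cannot exclude a pairing. With the replicate block, 1 member was higher and 3 lower, as without it, and 6480 genes were called in place of 6572. Alternatives were run for 41 named genes, not for those named by correlation. Of their 533 values, 517 kept their direction and side of the threshold or, if never called, passed no test. Depth limits Pdgfb, with 29 and 125 counts over the groups.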
